A study of Mus musculus with 6 samples.

Results

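The genes described here encode 9 heat shock chaperones, taken by name from the 12331 gene rows of the expression table. There were 4 of the cytosol (Hspa8, Hsp90aa1, Hsp90ab1 and Dnaja1), 2 of the endoplasmic reticulum (Hspa5 and Hsp90b1) and 3 of the mitochondria (Hspd1, Hspe1 and Hspa9), and all 9 had a row. Expression was measured by RNA-seq in 6 libraries. Their RNA came from E14tg2a, a mouse line of embryonic stem cells that was grown with serum and LIF, the cytokine that keeps such cells undifferentiated. Every library began with 10 pg of total RNA, about what a single cell holds, which was reverse transcribed from oligo(dT) and amplified with 20 PCR cycles. The amplified cDNA was fragmented by sonication in 3 libraries and by hyperactive Tn5 transposase, which cuts and tags DNA in one step (tagmentation), in the other 3. Tagmentation took 100 ng of cDNA for 5 min at 55 °C and was followed by 13 PCR cycles of the library. No such values are listed for sonication, so these steps cannot be told apart from the method. Both groups carried the numbers 1 to 3 and no other treatment. The labels call the libraries technical replicates, so p-values reflect library-to-library spread only, with no measure of how cultures vary. The protocol speaks of RNA prepared from the cell line, while each label also names a single cell lysate.

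Chaperones bind unfolded proteins and help them fold. The Hsp70 family (Hspa8 in the cytosol, Hspa5, also called BiP, in the endoplasmic reticulum, and Hspa9, or mortalin, in mitochondria) grips short greasy stretches in a cycle of ATP use that J-domain partners such as Dnaja1 set going. The Hsp90 family (Hsp90aa1 and Hsp90ab1 in the cytosol, Hsp90b1, or GRP94, in the endoplasmic reticulum) acts on proteins that are nearly folded, among them kinases and receptors. In the mitochondrial matrix Hspd1, or Hsp60, forms a barrel in which a protein folds, and Hspe1, or Hsp10, is its lid.

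The libraries held 18852822 to 34681566 alignments, and 5426 to 6807 genes reached 1 RPKM (a read count divided by gene length and by the library's alignments). All 10 stem cell markers looked up had a row, 7 of them with at least 1 RPKM in every library. The sum of the 10 was 1425 to 2918 RPKM after sonication and 1770.3 to 2598 RPKM after tagmentation, with Dppa5a alone at 455 to 1739 RPKM. The markers that fell below 1 RPKM were Nanog, Klf4 and Fbxo15. Nanog was at 0 in number 3, and Klf4 had 0.336 and 0.141 RPKM in number 1 but 12.3 to 40.4 RPKM elsewhere. Fbxo15 had 0.965 RPKM in tagmentation library 2. Of 6 fibroblast markers 5 had a row, with sums of 47.0 to 90.0 RPKM and 43.9 to 69.3 RPKM. Acta2, at 41.3 to 78.0 RPKM, made up most of this, and the collagen gene Col1a2 was at or near 0 throughout. Of 6 markers of extraembryonic endoderm only Dab2 had a row. Dab2 stood at 5.54 and 9.29 RPKM in the libraries of number 1 and at 0.11 RPKM or less in the others. The fibroblast marker Thy1 also stood highest in number 1, with 12.1 and 9.55 RPKM against 2.15 RPKM or less, as did Acta2. The collagen genes Col1a1 and Col3a1 went the other way, with 0 RPKM in number 1 and at most 0.832 and 0.343 RPKM elsewhere. The part of such cells in the results was not tested. In RNA from many cells, fewer cells of a type and less RNA per cell cannot be told apart. Libraries of the same number resembled each other across methods far more than libraries of one method did, so the numbers are treated as pairs.

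The most constant chaperone transcripts were those of Hsp90ab1, Hspa8 and Hspe1, and the other 6 were higher in both libraries of number 1 than in any other library. Hsp90ab1, the constitutive cytosolic Hsp90, stood at 1405, 1374 and 1113 RPKM after sonication (numbers 1, 2 and 3, the order kept throughout) and at 1075, 1648 and 1614 RPKM after tagmentation. Hspa8, the constitutive cytosolic Hsp70, reached 735, 778 and 455 RPKM after sonication and 705, 1060.5 and 907 RPKM after tagmentation. The highest library exceeded the lowest by 1.53 times for Hsp90ab1 and by 2.33 times for Hspa8, and the methods overlapped for both.

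Hsp90aa1, the Hsp90 form that heat can induce, shares its cellular compartment and much of its protein sequence with Hsp90ab1 but not its constancy. It had 692, 130 and 141 RPKM after sonication and 1018, 110 and 193 RPKM after tagmentation. Number 1 was thus the high one with both methods, and the methods overlapped. It lay 7.13 times above number 2 and 5.12 times above number 3 in the means of the pairs. Dnaja1, the J-domain partner, had the lowest mean of the 9, with 27.4, 6.16 and 3.67 RPKM after sonication and 36.0, 6.75 and 0.726 RPKM after tagmentation. Its order over numbers was the same with both methods, number 1 above 2 and 2 above 3. At a transcript of 3376 bases, the shortest coding one with a RefSeq match, the lowest of these values stands for about 85 reads, so it was low but well above the counting limit.

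Both chaperones of the endoplasmic reticulum were highest in number 1. Hspa5, which pulls new proteins into this compartment and senses unfolded ones, had 155, 12.8 and 11.5 RPKM after sonication and 223, 7.73 and 4.57 RPKM after tagmentation. Hsp90b1, which folds secreted and surface proteins there, had 130, 15.6 and 20.5 RPKM after sonication and 174, 6.39 and 5.99 RPKM after tagmentation. Number 1 stood far above the rest in both genes. The mean of the pair was 18.4 and 23.6 times that of numbers 2 and 3 for Hspa5, and 13.8 and 11.5 times for Hsp90b1. The 2 genes kept close to each other within each library, with Hsp90b1 at 0.778 to 1.79 times Hspa5.

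The promoters of this pair are shown because both hold the same known element. Their likeness over libraries is not particular to them: the Pearson correlation of log2(RPKM + 1) over 6 libraries, which form 3 pairs, was 0.985 between Hspa5 and Hsp90b1. It was 0.988 between Hsp90b1 and Hspd1, 0.967 between Hspa5 and Hspd1 and 0.938 between Hspa5 and Dnaja1, and the promoters of Hspd1 and Dnaja1 in the table do not hold that element as searched here. RefSeq's promoter table (build GRCm38.p6, 250 bases before to 50 bases after a start) gave promoters for 5 of the 9 members. The endoplasmic reticulum stress element, through which unfolded proteins in this compartment raise transcription, was searched on both strands as CCAAT, any 9 bases and CCACG. It was found in 39 of 32851 promoters (0.119%), at 1 place in Hspa5 and at 2 places in Hsp90b1, and in no other member with a promoter in the table. In the sequences the capitals mark these matches, which are letters in a window and not measured sites. The first lies at chr2:34771840-34772139 on the plus strand and the second at chr10:86705395-86705694 on the minus strand.
Hspa5: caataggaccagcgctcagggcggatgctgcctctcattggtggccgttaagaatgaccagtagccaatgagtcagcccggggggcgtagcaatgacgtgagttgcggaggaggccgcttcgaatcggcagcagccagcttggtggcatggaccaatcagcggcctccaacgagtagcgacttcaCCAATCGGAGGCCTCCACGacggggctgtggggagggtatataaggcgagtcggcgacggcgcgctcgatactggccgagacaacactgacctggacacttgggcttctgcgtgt
Hsp90b1: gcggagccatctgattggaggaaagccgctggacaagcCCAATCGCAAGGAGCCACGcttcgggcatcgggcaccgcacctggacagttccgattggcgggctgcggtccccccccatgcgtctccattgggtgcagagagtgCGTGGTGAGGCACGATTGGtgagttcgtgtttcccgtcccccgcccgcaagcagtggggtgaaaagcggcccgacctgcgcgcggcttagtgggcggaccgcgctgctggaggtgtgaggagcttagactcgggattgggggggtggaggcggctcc

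The mitochondrial lid and barrel parted ways. Hspe1, the lid, had 270, 319 and 303 RPKM after sonication and 311, 427 and 540 RPKM after tagmentation. Hspd1, the barrel, had 106, 27.8 and 27.9 RPKM after sonication and 102, 12.5 and 17.1 RPKM after tagmentation. Hspe1 thus varied 2.00-fold over the 6 libraries with number 1 lowest within each method, and Hspd1 varied 8.54-fold with its highest values there. The ratio of Hspe1 to Hspd1 was 2.54 and 3.04 in the sonication and tagmentation libraries of number 1. It was 11.5 and 34.3 in number 2, and 10.9 and 31.6 in number 3. Hspa9, the mitochondrial Hsp70 that draws proteins through the inner membrane, had 125, 8.47 and 39.0 RPKM after sonication and 138, 1.04 and 50.6 RPKM after tagmentation. Its number 3 stood 9.42 times above number 2 in the means of the pairs, while this ratio was 0.341 to 1.39 in the other 5 members that were high in number 1. Its lowest value rests on 110 reads and its highest on 11522 reads, with a gene length of 3042 bases read from the steps between values.

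Hspd1 and Hspe1 lie head to head and share their promoter region, which is why it is shown beside this contrast. The Hspe1 start and 1 of the 2 Hspd1 starts in the table lie 216 bases apart, and 285 bases of the 2 promoters are the same DNA on opposite strands. The heat shock element, the site of heat shock factors, was searched on both strands as 4 units, TTC and GAA in turn from TTC, each set 2 bases from the next. It was found in 5 of 32851 promoters (0.0152%), among them those of both genes. A form of 3 units (GAA, TTC and GAA, with the same spacing), which overlaps the longer one, was in 198 promoters (0.603%) and, among the members in the table, in these 2 genes. A further Hspd1 start in the table has none of these matches in its promoter. The sequence is the Hspe1 promoter, chr1:55087898-55088197 on the plus strand, with the 4 units in capitals.
Hspe1: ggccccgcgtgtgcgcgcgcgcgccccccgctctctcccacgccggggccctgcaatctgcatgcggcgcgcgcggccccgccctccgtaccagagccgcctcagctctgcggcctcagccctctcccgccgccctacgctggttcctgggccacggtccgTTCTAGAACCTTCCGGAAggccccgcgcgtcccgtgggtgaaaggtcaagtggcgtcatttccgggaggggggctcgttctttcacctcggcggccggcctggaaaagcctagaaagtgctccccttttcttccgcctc

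**Figure D1:**
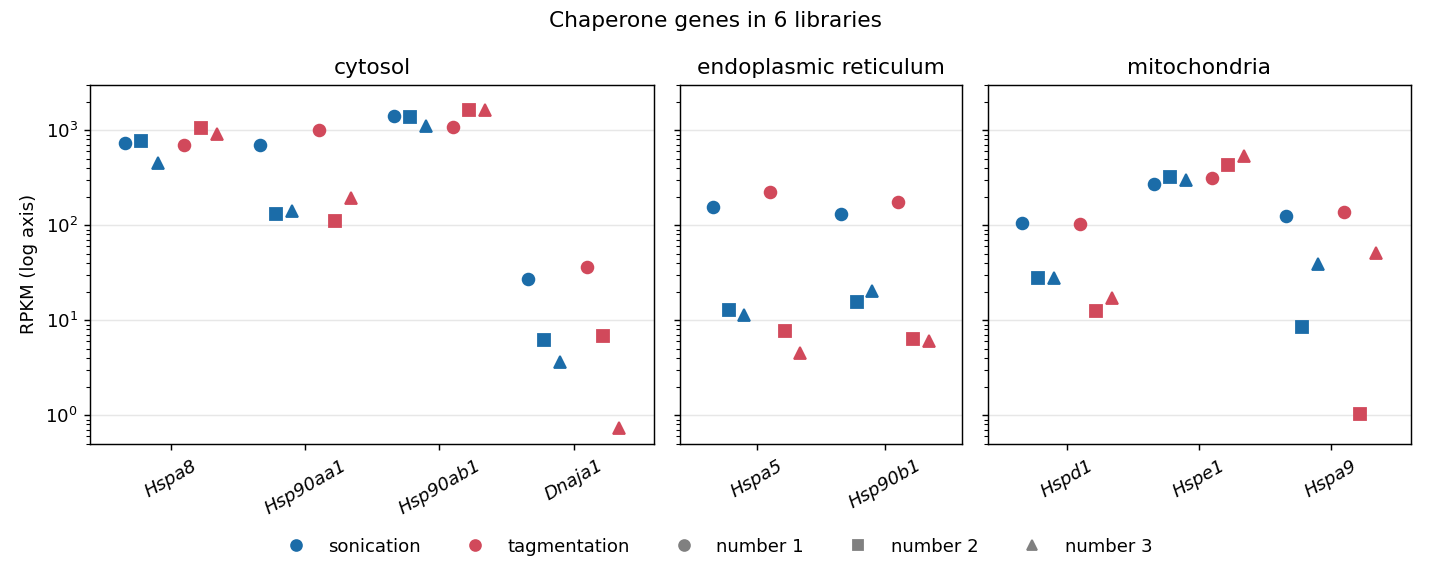
RPKM (log axis) of the 9 chaperone genes in each library, by cell compartment; colour gives the method and the marker the replicate number, 1 point per library. The circles of number 1 stand above all other points in 6 genes, while Hspa8, Hsp90ab1 and Hspe1 stay within 2.33-fold.

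Ordered by the mean over 6 libraries, Hsp90ab1 (1372 RPKM) came first, then Hspa8 (773 RPKM), Hsp90aa1 (381 RPKM), Hspe1 (362 RPKM), Hspa5 (69.2 RPKM), Hspa9 (60.4 RPKM), Hsp90b1 (58.7 RPKM), Hspd1 (48.9 RPKM) and Dnaja1 (13.4 RPKM). The order held in 6 of 6 libraries for Hsp90ab1 above Hspa8, Hspe1 above Hspa5, and Hspd1 above Dnaja1. Hspa8 exceeded Hsp90aa1 in 5 of 6 libraries, the exception being tagmentation library 1. The other neighbours did not keep their order. Hsp90aa1 exceeded Hspe1 in 2 libraries, Hspa5 exceeded Hspa9 in 4, Hspa9 exceeded Hsp90b1 in 2, and Hsp90b1 exceeded Hspd1 in 2.

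Summed by compartment, cytosolic members held most of the chaperone RPKM in every library, from 74.9% in tagmentation library 1 to 86.1% in tagmentation library 2. The mitochondrial share was 13.3% to 18.2%. The share of the endoplasmic reticulum was 7.83% and 10.5% in number 1 and 0.317% to 1.51% in the other 4 libraries. Its summed level went from 285 and 397 RPKM in number 1 to between 10.6 and 32.0 RPKM elsewhere. Cytosolic sums ranged from 1713 to 2859 RPKM. Hspa8 and Hsp90ab1 made up most of them in numbers 2 and 3, and Hsp90aa1 added 692 and 1018 RPKM in number 1. All 9 genes together made up 0.733% to 1.24% of the RPKM sum of a library.

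The difference between numbers was tested with limma's F test, with method as a term, on log2(RPKM + 1) and with Benjamini-Hochberg adjustment over 6327 genes. It called 6 of the 9 members, where 88.1% of all tested genes were called, so the share of members is no larger than the background. Both libraries of number 1 stood above all others in 30.8% of tested genes and in the same 6 members. The members were chosen with earlier results of these data known. Several also vary together (r of 0.967 to 0.988 among Hspa5, Hsp90b1 and Hspd1), so no excess is read from this. Hspa5 was higher in number 1 than in number 2 by 4.09 and than in number 3 by 4.49 (SE 0.36 each, adjusted p 1.09e-28). Hsp90b1 was higher by 3.77 and 3.62 (SE 0.37, adjusted p 1.02e-22). Hspa9 was higher by 4.91 and 1.54 (SE 0.37, adjusted p 3.95e-28), and its number 2 lay 3.37 below number 3. Of the rest, Hsp90aa1 was higher in number 1 by 2.80 and 2.34 (adjusted p 6.32e-13), Hspd1 by 2.42 and 2.20 (adjusted p 6.40e-11) and Dnaja1 by 2.12 and 3.51 (adjusted p 1.09e-17). The error in this fit is the difference between methods within a number. The labels do not state whether libraries of the same number share an amplified cDNA, and if they do, these p-values hold no error of amplification. The fit also leaned on the variance shared by all genes (210 prior degrees of freedom) far more than on that of each gene. Over 6 other settings (2 pseudocounts, 2 filters and 2 scalings) the highest adjusted p of these members was 0.00432 for Hspa5 to 0.0150 for Dnaja1.

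The numbers 2 and 3 alone, which 72% of tested genes told apart, were told apart by Dnaja1 (adjusted p 0.00485), Hspa9 (adjusted p 1.20e-04) and Hspa8 (adjusted p 0.0287). Hspa5 (0.40, adjusted p 0.147), Hsp90b1 (adjusted p 0.575), Hspd1 (adjusted p 0.371) and Hsp90aa1 (adjusted p 0.0629) were not called there. Their calls over 3 numbers thus ended without number 1. Each of the 6 was called when number 1 was set against number 2 alone (69.9% of tested genes) and against number 3 alone (60.9%).

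The 3 constant members were not called, with largest differences between numbers of 0.29 for Hsp90ab1 (adjusted p 0.741), 0.48 for Hspe1 (adjusted p 0.418) and 0.50 for Hspa8 (adjusted p 0.403). These bounds depend on the scaling. After median-ratio scaling Hspe1 was called with a difference of 0.61 (adjusted p 0.00244), and after quantile normalization so were Hspe1 (0.41, adjusted p 0.0203) and Hspa8 (0.40, adjusted p 0.0220). Hsp90ab1 was called under none of the 6 settings (lowest adjusted p 0.0544). High level goes with constancy in these libraries. Of 188 genes with a mean of 300 RPKM or more 36.2% were called and their median difference was 0.73, against 89.4% and 2.51 in the 3304 genes between 10 and 100 RPKM. Hsp90aa1 differed by 2.80 and enters the abundant set by its mean only through number 1, with pair means of 855, 120 and 167 RPKM. In that set 10.1% of genes had number 1 on top, a share that is thus no background of like level for Hsp90aa1.

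**Figure D2:**
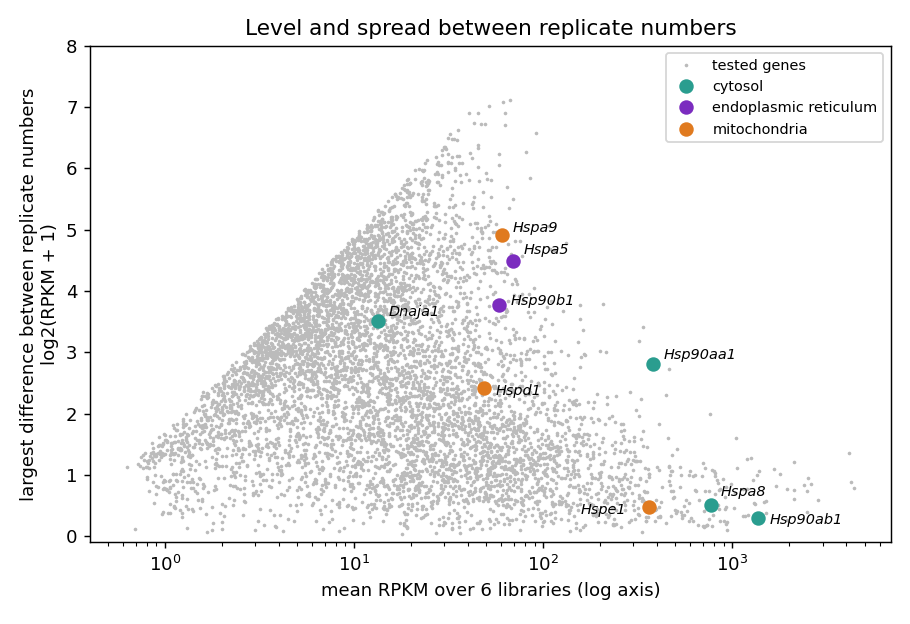
Mean RPKM over 6 libraries (log axis) against the largest difference between replicate numbers on the log2(RPKM + 1) scale, with 1 grey point for each of 6327 tested genes and coloured points for the chaperones. Hsp90ab1, Hspa8 and Hspe1 lie low among the abundant genes, and Hsp90aa1, at a mean of 381 RPKM, lies at 2.80.

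Partner chaperones therefore stood in different proportions from library to library. The ratio of Hsp90aa1 to Hsp90ab1, the inducible over the constitutive form, was 0.492 and 0.947 in the sonication and tagmentation libraries of number 1 and 0.0665 to 0.127 in the other 4. The Hsp70 Hspa8 exceeded its partner Dnaja1 by 19.6 to 26.9 times in number 1 and by 124 to 1248 times in the others. Hspa9 had 1.17 and 1.35 times the level of Hspd1 in number 1, 0.305 and 0.0838 times in number 2, and 1.40 and 2.96 times in number 3. The steadiest ratio of the 5 was that of Hsp90b1 to Hspa5, with an SD of 0.48 on the log2 scale over 6 libraries, against 1.51 to 2.14 for the others. These are RPKM values, scaled to length, and the ratios carry no test.

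**Figure D3:**
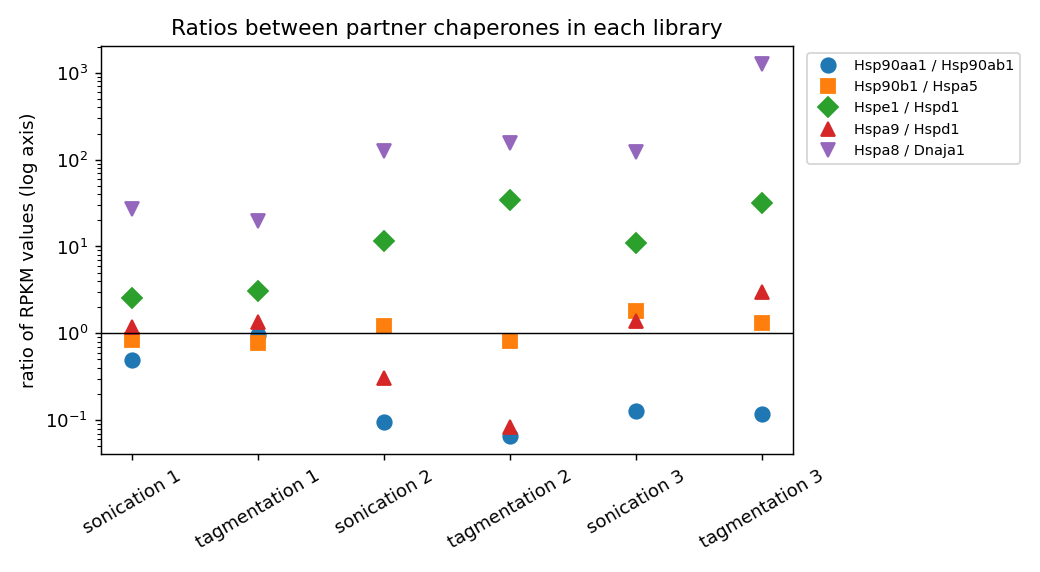
Ratio of RPKM values (log axis) of 5 pairs of partner chaperones, with 1 point per pair and library and the replicate numbers side by side. Hsp90b1 to Hspa5 stays between 0.778 and 1.79, while Hspe1 to Hspd1 runs from 2.54 to 34.3.

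The series asked how the 2 library methods compare. None of the 9 chaperones was called between them in limma's test without a block, which called 0% of 6327 genes (0 genes, 18 at an unadjusted p under 0.05, none of them a member). On simulated data this test, which ignores the pairs, recovered 0% of 2-fold and 0% of 4-fold changes. Its lack of calls therefore does not show equal levels. The highest log2 fold changes of tagmentation over sonication were 0.48 for Hspe1 (SE 0.35) and 0.46 for Hspa8 (SE 0.34), and the lowest were -0.79 for Hsp90b1 (SE 1.31) and -0.61 for Hspd1 (SE 0.91). The mean of Hspe1 was 297 ± 25.0 RPKM with sonication and 426 ± 115 RPKM with tagmentation, and that of Hsp90b1 was 55.4 ± 64.6 RPKM and 62.0 ± 96.7 RPKM (SD, n = 3). Sonication and tagmentation overlapped in all 9 genes, and 2.4% of tested genes did not overlap. With the replicate number as a block 3.29% of genes were called and again no member, with adjusted p from 0.122 for Hsp90b1 to 0.875 for Hsp90ab1. Under each of 2 rescalings of the blocked fit 1 member was called. Hspe1 was higher by 0.37 with median-ratio scaling (adjusted p 0.0434, 8.76% of genes called), and Hspa8 was higher by 0.40 with quantile normalization (adjusted p 0.0459, 7.52% called). The blocked adjusted p of Hspe1 was 0.0434 to 0.432, and that of Hspa8 0.0459 to 0.479, over these scalings and pseudocounts of 0.1 and 1.

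Within pairs, both chaperones of the endoplasmic reticulum were higher after tagmentation in number 1 and lower in numbers 2 and 3, a change of sign that was not tested. Tagmentation gave 1.44 times the sonication RPKM of Hspa5 in number 1, but 0.602 and 0.398 times in numbers 2 and 3. For Hsp90b1 these ratios were 1.34, 0.408 and 0.292. A pattern of this kind was seen in 9.72% of tested genes. With Hspd1, 3 of the 9 members were lower in both numbers 2 and 3, as were 24.9% of tested genes. Hspd1 was lower after tagmentation in 3 of 3 pairs, as were 14.2% of tested genes, with ratios of 0.959, 0.449 and 0.613. Hspe1, its lid, was higher in 3 of 3 pairs, as were 19.6% of genes, with ratios of 1.15, 1.34 and 1.78. By the ratio of RPKM values the widest gaps belonged to Hspa9 in number 2, with 0.123, and to Dnaja1 in number 3, with 0.198. Neither of these genes kept its direction over the pairs. On the log2(RPKM + 1) scale Hspa9 in number 2 was still widest (-2.21), but Hsp90b1 in number 3 (-1.62) exceeded Dnaja1 (-1.44).

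In numbers 2 and 3 alone, with the number as a block, 16.6% of tested genes were called between methods and 5 of the 9 members. Hsp90b1 was lower after tagmentation, with a log2 fold change of -1.40 (SE 0.22, adjusted p 0.00832), as were Hspa5 with -0.91 (SE 0.23, adjusted p 0.0275) and Hspd1 with -0.89 (SE 0.21, adjusted p 0.0222). Higher were Hspa8 by 0.72 (SE 0.18, adjusted p 0.0260) and Hspe1 by 0.63 (SE 0.17, adjusted p 0.0372). Abundant genes as a whole also tended upward. Between 300 and 2000 RPKM, the range of Hspa8 and Hspe1, the median log2 difference was 0.061 in number 2 and 0.292 in number 3. Of these genes 42.9% and 23.7% were lower after tagmentation. The fit of numbers 2 and 3 has 2 pairs. With number 1 included and the main scaling none of the 5 was called, and Hspe1 and Hspa8 were called there only under the rescalings given above. Lower calls were the rarer kind there, 6.15% of tested genes against 10.5% higher. Hspa5, Hsp90b1 and Hspd1 belong, however, to the genes that had at least 100 RPKM in both libraries of number 1, a split made after their values were seen and with no test. Every other member but Dnaja1 meets this cut too. Among these, Hspa9 and Hsp90aa1 were also highest in number 1. Their ratios of tagmentation to sonication were 0.123 and 0.841 in number 2, but 1.30 and 1.36 in number 3. Of genes between 5 and 30 RPKM in number 2, 78.0% of the 41 that met the cut were lower after tagmentation (median log2 difference -0.34), against 27.8% of the other 2209 (median 0.20). In number 3 the shares were 43.8% of 48 genes (median 0.12) and 20.2% of 1975 genes (median 0.41). Hspa5, Hsp90b1 and Hspd1 are themselves counted among the 41 and the 48 genes, so these shares are no independent background for them. Whether material of number 1 had reached the sonication libraries of numbers 2 and 3 was not tested, and their low values of these genes carry that limit.

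**Figure D4:**
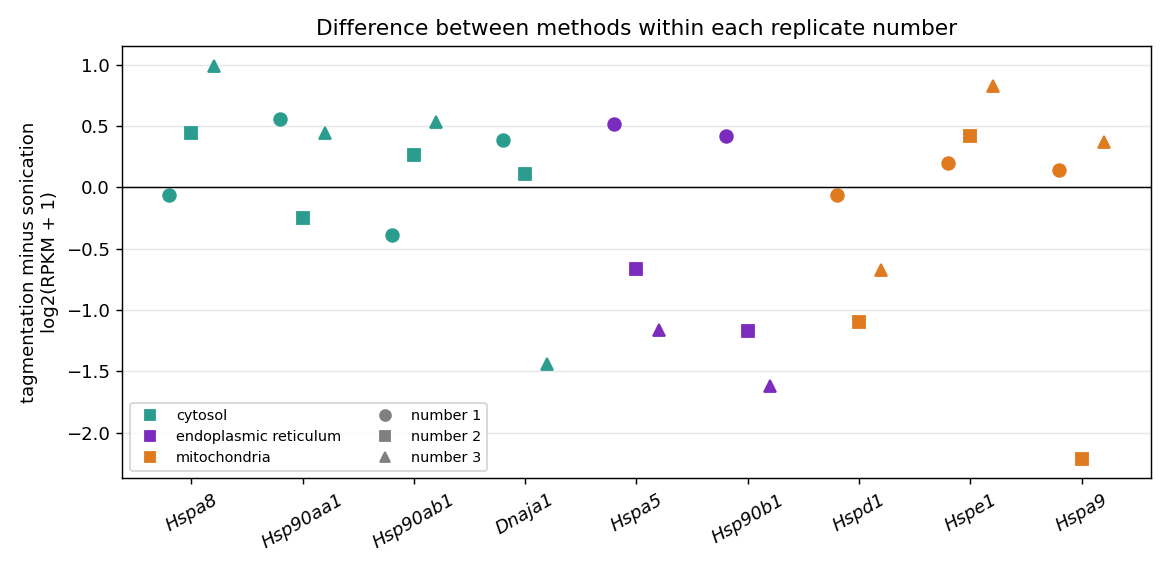
Tagmentation minus sonication on the log2(RPKM + 1) scale for each chaperone within replicate numbers 1 to 3, coloured by compartment, with 1 point per pair. Hspa5 and Hsp90b1 lie above 0 in number 1 and below 0 in numbers 2 and 3, and Hspe1 lies above 0 in all 3.

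Other chaperone genes were followed by compartment, in lists of co-chaperones, folding enzymes, import proteins and stress regulators. Of 37 cytosolic genes 26 were tested, and 23 of these differed between numbers (88.5%, against 88.1% of all tested genes). Number 1 was on top in 8 of the 26 (30.8%, the same share as in all tested genes). With untested genes it was so in 10 of 36 (27.8%, against 31.8% of 12331 genes). Between methods none of the 26 was called without the block and 2 were called lower with it, against 100 higher and 108 lower among all genes. These were Dnajc2, a ribosome-bound J protein (-1.17, SE 0.29, adjusted p 0.00968), and Dnajc9, a histone-binding J protein (-1.17, SE 0.29, adjusted p 0.00902). The SEs of this fit, too, rest mostly on the variance shared by all genes (210 prior degrees of freedom), not on the spread of each gene. In number 1 both genes were higher after tagmentation. Dnajc9 had 1.95 and 5.30 RPKM after sonication and 0.0531 and 0.212 RPKM after tagmentation in numbers 2 and 3, but 19.1 and 25.0 RPKM in number 1. Dnajc2 likewise stood highest in number 1, with 14.4 and 20.4 RPKM. Fkbp4, an immunophilin that works with Hsp90, was the most abundant of the list, with 464, 224 and 447 RPKM after sonication and 328, 232 and 472 RPKM after tagmentation.

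Of 29 genes of the endoplasmic reticulum 22 were tested, 17 of them different between numbers (77.3%) and none called between methods in either fit. Of the 22, 6 had number 1 on top as Hspa5 and Hsp90b1 did (27.3%, against 30.8% of all tested genes). The filter removes genes seen in number 1 alone, and 4 of the 7 untested genes had this order too, against 32.8% of all 6004 untested genes. These were Dnajb9, Ero1l, Ern1 and Eif2ak3, of which Ern1 had only 0.432 and 0.335 RPKM in number 1. Dnajb9, a J protein that works with Hspa5, had 33.0 and 66.0 RPKM in number 1 and was listed at 0 in the other 4 libraries. Over every gene with a row the share was thus 10 of 29 (34.5%), against 31.8% of 12331 genes. Atf4, a transcription factor of the stress response, had 219, 270 and 222 RPKM after sonication and 195, 363 and 402 RPKM after tagmentation and was not called between numbers (adjusted p 0.224). Ddit3, or CHOP, a factor that Atf4 activates, had 76.6, 74.6 and 136 RPKM and 45.1, 62.6 and 125 RPKM. Pdia6, a disulfide isomerase, peaked in number 2, at 141 and 183 RPKM, against 30.7 and 32.1 RPKM in number 1. Genes of the same compartment thus differed in which number stood highest.

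Of 18 mitochondrial genes 16 were tested, with 15 different between numbers (93.8%), none called between methods and 3 with number 1 on top (18.8%; with untested genes 4 of 18, or 22.2%). Tomm20, an outer-membrane import receptor, had 230, 160 and 237 RPKM after sonication and 250, 188 and 375 RPKM after tagmentation. Clpp, a matrix protease, had 99.5, 154 and 102 RPKM and 49.6, 127 and 98.2 RPKM. Trap1, the mitochondrial Hsp90, had 87.4, 79.7 and 138 RPKM and 60.1, 77.8 and 165 RPKM. Median log2 fold changes between methods were -0.0028 for the cytosolic, 0.14 for the reticulum and -0.19 for the mitochondrial list, against 0.028 for all tested genes.

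The classic stress-inducible cytosolic Hsp70 genes were close to 0, an observation made after the values were seen. Hspa1a was at 0.0723 RPKM or less and Hspa1b at 0.113 RPKM or less in every library. These near-identical copies can share reads, so their values are uncertain. Hsf1, the master heat shock factor, had 31.3 and 16.0 RPKM in number 1 and at most 0.730 RPKM in the others, and did not pass the filter. Of the 10 untested cytosolic genes 2 had number 1 on top, Hsf1 and Hspb8, against 32.8% of all 6004 untested genes.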

How the data were processed

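The deposited RPKM values were made by the authors, 1 column per library and none pooled, and the alignment totals are given, per the file headers. The submitters' processing notes name CASAVA 1.7.0, Partek and mm9 without roles. The aligner, the annotation behind the rows and how multiply matching reads were handled were not given in the sources used here. Oligo(dT) priming and amplification from 10 pg can lose rare transcripts. No molecular identifiers mark the PCR copies, so read numbers cover counting error only.

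Libraries were grouped and numbered by their labels, and no 2 libraries were identical. Values were tested as log2(RPKM + 1), which understates the change of low genes. A gene was tested if 3 or more of the 6 libraries had it at 1 RPKM or above, which left 6327 genes, all 9 chaperones among them. Tests used limma 3.58.1 under R 4.3.3 (trended eBayes; two-sided), its p-values given Benjamini-Hochberg adjustment over all tested genes and a threshold of 0.05. Method was the only term, and the replicate number was a block in the alternative. Numbers were compared with method as a term, so the difference between methods within a number is the error. Same-numbered libraries deviated together from their group means (r of 0.952, 0.969 and 0.934; no pairing is stated in the labels), so the numbers were taken as pairs. On simulated data with the fitted spread of 6327 genes, the method test recovered 0% of 2-fold and 0% of 4-fold changes without the block. The block raised these shares to 63% and 100%, at 12 false calls, and the number test reached 36% and 99%, at 7 false calls. The simulated noise was independent between genes, so these shares need not hold here. For the number test only 100 genes at each fold were changed, whereas 5577 genes were called between numbers in the data. Its adjustment was thus made among far fewer changed genes, and its shares do not give the power of the real fit. A lack of calls, without the block or for changes under 2-fold, therefore does not show equal levels.

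Whole-read lengths were sought from 200 to 12000 bases within 0.002 reads plus 5e-06 of the reads. Copies of the chaperone transcripts were found with minimap2 2.31 in GENCODE M21 (at least 300 matching bases and 85% identity). All 9 members were named. Of the other lists, genes called with or without the block were named, filled to 3 by mean RPKM. The members and lists were chosen with earlier results of these data known. Alternatives were other pseudocounts, filters, scalings, the block, and leaving out libraries or numbers.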

Additional observations from a re-analysis of the deposited data

How the results depend on the processing

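The replicate block moved the number of genes called between methods from 0 to 208, to 554 with median-ratio scaling, 476 with quantile normalization and 8 with a pseudocount of 0.1. Leaving out 1 replicate gave 0 to 1051 calls, 0 without each single library, and with the block 1051, 10 and 19 without numbers 1, 2 and 3. Between numbers 5577 genes were called, 3411 of 4023 when only genes averaging 10 RPKM or more were tested, and 3856 to 4557 without 1 number. Of 171 alternative values of the members between methods 149 kept direction and side of the threshold, 7 gained a call and 15 turned direction. All 15 came from leaving out a library or number. Over these the log2 fold change ran from -2.11 to 0.75 for Hspa5, -2.33 to 0.14 for Hsp90b1, -1.52 to 0.022 for Hspd1, -1.82 to 1.22 for Hspa9, -1.43 to 0.79 for Dnaja1, -0.68 to 1.03 for Hsp90aa1 and -0.062 to 0.40 for Hsp90ab1. With the block Hspa9 was at 0.26 without number 2 and Dnaja1 at 0.25 without number 3. Hspe1 and Hspa8 kept their direction. A median-ratio or quantile scaling moved the median of all genes by less than 0.1. The cause of these changes was not tested, and with all libraries and the main scaling the block changed no call of a member. Without number 1, Hsp90aa1, Hspa5, Hsp90b1 and Hspd1 lost their call between numbers.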

Other observations

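The gene most like each chaperone over the 6 libraries, by Pearson correlation of log2(RPKM + 1) among 3905 other genes with a mean of at least 10 RPKM, was Ppia for Hspa8 (0.999), Nup85 for Hsp90ab1 (0.981), Cdyl for Hsp90aa1 (0.996) and Snx5 for Dnaja1 (0.999). It was Eif4a2 for Hspa5 (0.999), Eif3j for Hsp90b1 (1.00), Sec61g for Hspd1 (1.00), Faf2 for Hspe1 (0.997) and Mrfap1 for Hspa9 (0.994). The libraries form 3 pairs, so such values are easily reached: 8 genes exceeded 0.95 for Hsp90ab1 and 227 for Hspa5. Ppia, the cyclophilin that also serves as a folding enzyme, had 562, 570 and 373 RPKM after sonication and 539, 744 and 651 RPKM after tagmentation, close to the course of Hspa8.

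Several chaperones have near-identical copies that can share reads with them, so their levels are uncertain by that amount. In GENCODE M21, 13 pseudogenes matched Hspa8, 10 matched Hspd1, 4 matched Hsp90ab1, 3 each matched Hsp90aa1 and Dnaja1, 1 matched Hspa9, and none matched Hspa5, Hsp90b1 or Hspe1. Hspa8 also matched a long noncoding RNA, Gm26825, at 99.6% identity. Hspe1 had 1 coding match, AC117239.2, which is 99.0% identical and was not analysed here. Of these only Gm13498, 89.1% identical to Hsp90ab1, had a row of its own, with 44.3 to 104 RPKM. Dnaja1 also shares 608 bases with its neighbour Smu1, which had 24.0 to 84.0 RPKM. How such reads were split is unknown here.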
